A study of Daphnia magna with 230 samples.

Results

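Dapma7bEVm003799 (row Dapma7bEVm003799t1) is a Daphnia magna transcript that the study's annotation names "Fibrinogen and fibronectin", and its abundance is described here in every library of the wetland and stormwater experiments. It is 1 of 29127 transcripts in the table of estimated counts, and 1 of 26256 after removal of those without variance in one or both experiments. It was chosen because it was absent from neonates of the group labelled Lab Water-119 ng/L, held in laboratory water with pyriproxyfen. Its levels in laboratory water are therefore given as a description, without a test, and tests are given only for waters that did not enter the choice.

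Messenger RNA was sequenced from pools of 5 whole neonates after 96 h of exposure. In the wetland experiment, neonates were held in water from the Breen, Douglas, Kandiyohi, Kerk, LeSouer or Woodland wetland. Each wetland had a group with pyriproxyfen (for example, Kerk Wetland-119 ng/L) and a group with 0 ng/L (24 and 30 libraries over the 6 wetlands), called spiked and unspiked here. The laboratory water groups were Lab Water-0 ng/L, Lab Water-119 ng/L and Lab Water-239 ng/L, of 5 libraries each. The laboratory water was well water from St. Cloud State University (SCSU). The spiked waters and the unspiked wetland waters all carried the ethanol in which pyriproxyfen was dissolved, whereas the laboratory water with 0 ng/L was water alone. Doses are nominal. In the stormwater experiment, which had no pyriproxyfen, neonates were held in water from 9 sampling points in spring, early summer and late summer (45, 44 and 50 libraries) or in SCSU laboratory water labelled with the same 3 seasons (21 libraries). The points were the outfall and the inflow of iron-enhanced sand filters at the 37ST, TBNS1 and TBNS2 sites and the untreated pipe outflows named Cedar Lake, Crystal Lake and SAP. Replicate pools were drawn from the animals of one exposure. Where each water had its own mean in the fit, the p-values measure the spread between pools of one exposure. In the comparisons pooled over wetlands, and in those of seasons over sampling points, the spread also holds differences between waters. There each pool counts as independent, although pools of one water are not. By the labels the animals of both experiments had one supplier, whereas the methods speak of different genetic backgrounds, so levels are set side by side across the experiments but tested only within them.

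Fibrinogen-like domains and fibronectin type III repeats are folds of extracellular and cell-surface proteins. In insects and molluscs, several secreted proteins with a fibrinogen-like domain bind sugars on the surface of microbes and take part in innate immunity, and fibronectin type III repeats are common in adhesion molecules and receptors. Arthropods do not clot their hemolymph with fibrinogen, so the name refers to the fold and not to a clotting factor. Pyriproxyfen is an analog of juvenile hormone, which takes part in metamorphosis and reproduction in insects. The study names methyl farnesoate as its form in crustaceans. In Daphnia, pyriproxyfen raises the production of male offspring. The role of this transcript's product in Daphnia is not given by the annotation.

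Library totals lay between 5040635 and 15036928 counts, and levels are given as counts scaled to that total (CPM). A floor of 3 counts corresponded to 0.2 to 0.595 CPM, depending on the library. These floors cover counting error only. The intervals given for shares are binomial over libraries and treat each library as independent, although pools of one water are not. Over all assigned libraries the transcript ranged between 0 and 410.2 CPM with a median of 50.8 CPM. It was at 0 in 15 libraries (6.55%) and at 3 counts or fewer in 19. Both counts include the 5 Lab Water-119 ng/L libraries that chose the transcript, so no interval is given for this share. The 19 libraries had a median total of 10127100 counts, against 10771600 in the others. Within the wetland experiment the medians were 10055100 (10 libraries) against 12291300. Within the stormwater experiment they were 10238100 (9 libraries) against 10579000. Taken over transcripts together, and not for this transcript alone, each of the 449 pairs of replicate libraries differed by more than sampling noise.

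In laboratory water the transcript was present without pyriproxyfen, absent at the lower dose and mostly low at the higher dose. The Lab Water-0 ng/L libraries held 11.6, 33.3, 97.5, 112.5 and 139.7 CPM. All 5 Lab Water-119 ng/L libraries were at 0 after rounding (100%), without a single rounded count among 51692062 in total. This share chose the transcript, so no interval is given for it. Before rounding 4 of the 5 were at 0, and the other had an estimate that rounded to 0. The Lab Water-239 ng/L libraries held 0, 2.29, 4.32, 4.86 and 28.5 CPM, so 1 of 5 was at 0. Every library of the lower dose lay below every library without pyriproxyfen, and at the higher dose only the library at 28.5 CPM lay inside their range.

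The mean of Lab Water-119 ng/L was at least 260.3-fold lower than that of 78.9 ± 54.3 CPM in Lab Water-0 ng/L (SD, n = 5), taking 3 counts per library as the floor (0.303 CPM on average). The mean of Lab Water-239 ng/L was 7.99 ± 11.6 CPM (SD, n = 5), which is 9.87-fold below the mean without pyriproxyfen, or 27.5-fold below it without the highest library of that dose. The level at the lower dose chose the transcript, so nothing is read from the order of the 2 doses. For the lower dose against none, 4.46% of the 25271 transcripts tested were differentially expressed genes (DEGs), which passed at 0.05 after adjustment in edgeR and changed by more than 2 on the log2 scale, and 2.98% were DEGs with lower levels. For the higher dose against none the share was 1.67%, and for the higher against the lower dose edgeR gave 0 DEGs (0%), with 1938 transcripts at an unadjusted p under 0.05. Chance alone puts about 5% of transcripts under that unadjusted p. The contrast chose the transcript, so nothing is read from its place among these DEGs. The RNA came from whole animals, in which fewer cells of a type and less RNA per cell cannot be told apart.

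**Figure D1:**
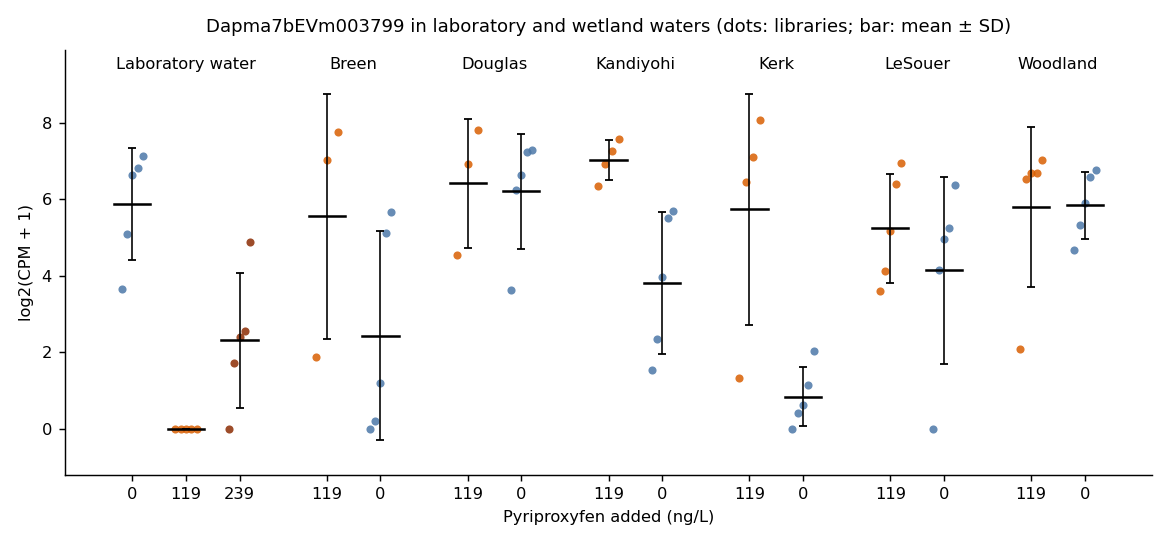
Level of Dapma7bEVm003799 in CPM on a log2(CPM + 1) axis in each library of the wetland experiment, with points for libraries and bars for group means ± SD, grouped by water and dose. All 5 libraries of Lab Water-119 ng/L sit at 0, whereas the 24 spiked wetland libraries, at the same dose, sit between 1.52 and 269.8 CPM.

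None of the 24 spiked wetland libraries, which had the same nominal dose, was at 0 (exact 95% upper bound 14.2%). They held between 1.52 and 269.8 CPM with a median of 101.8 CPM, and the 30 unspiked ones held between 0 and 155.04 CPM with a median of 27.2 CPM. In the spiked wetland waters 13 of 24 libraries exceeded 100 CPM and 3 lay under 10 CPM, against 3 and 11 of 30 in the unspiked ones. In the unspiked wetland waters 3 of 30 libraries were at 0 (10%, exact 95% interval 2.11 to 26.5%), 1 each from Breen, Kerk and LeSouer. The mean in the spiked wetland waters was 101.5 ± 73.9 CPM (SD, n = 24). The floor of the laboratory water libraries with that dose was 0.303 CPM on average, and their lack of counts chose the transcript. The dose label was shared, but the waters were not, and laboratory and wetland water were compared here only as levels side by side.

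Of the 6 wetlands, Kerk had the largest fold change between spiked and unspiked water. Its spiked libraries held 1.52, 86.1, 135.9 and 269.8 CPM. Its unspiked libraries held 0, 0.342, 0.539, 1.20 and 3.11 CPM, of which 1 was at 0. The unspiked Kerk libraries were all low, and the one low spiked library overlapped them. The means were 123.3 ± 112.3 CPM in spiked (SD, n = 4) and 1.04 ± 1.24 CPM in unspiked Kerk water (SD, n = 5). The transcript rose with pyriproxyfen in Kerk water, with a log2 fold change of 6.99 (SE 1.55) and an adjusted p of 0.00635 by edgeR's quasi-likelihood test (Benjamini-Hochberg adjusted). In this comparison 2.02% of the 26166 transcripts tested were DEGs, 1.84% with higher levels. Leaving out each replicate number in turn kept the log2 fold change between 6.68 and 7.46, but the adjusted p of the edgeR test reached as high as 0.0618 and exceeded 0.05 without replicate number 2 or 3. An exact two-sided permutation test of log2(CPM + 1) gave p = 0.0317 in Kerk, or 0.0952 adjusted over the 6 wetlands.

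Kandiyohi was the only wetland whose doses did not overlap. Its spiked libraries held 79.5, 119.6, 152.6 and 188.1 CPM. Its unspiked libraries held 1.88, 4.12, 14.6, 44.4 and 50.8 CPM. Every spiked library lay above every unspiked one, with means of 134.97 ± 46.4 CPM (SD, n = 4) against 23.2 ± 22.9 CPM (SD, n = 5). The log2 fold change of 2.53 (SE 1.26) did not pass in edgeR's quasi-likelihood test (adjusted p = 0.42), where 0.0573% of the transcripts tested were DEGs. The exact permutation test gave p = 0.0159, the smallest that 4 against 5 libraries allow, and 0.0952 adjusted over the 6 wetlands.

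In Breen water the spiked libraries held 2.70, 128.6 and 213.4 CPM. The unspiked ones held 0, 0.152, 1.30, 33.7 and 49.5 CPM. Of the spiked libraries 2 lay above all unspiked ones and 1 lay among them, and 1 of 5 unspiked libraries was at 0. The means were 114.9 CPM (n = 3, range 2.70 to 213.4 CPM) against 16.9 ± 23.2 CPM (SD, n = 5), with a log2 fold change of 2.59 (SE 1.32) that did not pass (adjusted p = 0.453, edgeR's quasi-likelihood test). There 0.0994% of transcripts were DEGs, and the exact permutation p was 0.179.

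The remaining wetlands overlapped widely. Douglas libraries held 22.3, 119.6 and 221.2 CPM in spiked and 11.4, 75.01, 98.6, 148.8 and 155.03 CPM in unspiked water, and none was at 0. LeSouer libraries held 11.2, 16.4, 34.8, 82.8 and 122.02 CPM in spiked and 0, 16.7, 30.1, 37.1 and 81.2 CPM in unspiked water. Woodland libraries held 3.25, 91.1, 101.3, 102.3 and 129.7 CPM in spiked and 24.3, 38.98, 58.7, 94.2 and 106.9 CPM in unspiked water. Unlike the unspiked Kerk libraries, those from Douglas and Woodland were never under 10 CPM without pyriproxyfen. The log2 fold changes were 0.24 (SE 1.33) in Douglas, 0.71 (SE 1.16) in LeSouer and 0.35 (SE 1.16) in Woodland, and none passed in edgeR's quasi-likelihood test (adjusted p of 1, 0.858 and 1 in that order), where 2.91%, 0.852% and 0.0191% of transcripts were DEGs. Exact permutation p-values were 0.821 in Douglas, 0.476 in LeSouer and 0.96 in Woodland. A joint edgeR test of whether the 6 wetlands differed in their dose effect did not pass either (adjusted p = 0.243), so the larger effect in Kerk was not shown to differ from the others. By DESeq2 the same joint test passed, with an adjusted p of 0.0424.

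Pooled over the 6 wetlands, the transcript averaged 101.5 ± 73.9 CPM in spiked and 39.4 ± 44.9 CPM in unspiked water (SD, n = 24 and 30). The log2 fold change of 1.32 (SE 0.57) did not pass in edgeR's quasi-likelihood test (adjusted p = 0.105), in a comparison where 1.11% of 26166 transcripts were DEGs. With the wetland as a covariate it was 1.96 (adjusted p = 0.0296), and without the Douglas libraries it was 1.83, past an adjusted p of 0.05 in both. The difference between doses was thus positive in wetland water and negative in laboratory water at the same nominal dose. How far these differ was not tested, since the laboratory contrast chose the transcript. In laboratory water the doses also differed in the ethanol carrier, which the water without pyriproxyfen lacked.

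Among the unspiked wetlands the group means of the transcript ran upward through Kerk (1.04 ± 1.24 CPM), Breen (16.9 ± 23.2 CPM), Kandiyohi (23.2 ± 22.9 CPM), LeSouer (33.01 ± 30.4 CPM), Woodland (64.6 ± 35.3 CPM) and Douglas (97.8 ± 58.9 CPM), each as mean ± SD over 5 libraries. The Kerk libraries, at no more than 3.11 CPM, lay below every Douglas and Woodland library. In the joint edgeR test over the 6 unspiked wetlands the transcript stood close to the threshold without passing it (adjusted p = 0.057), where 2.66% of transcripts passed. That call depended on the settings, passing by DESeq2 (adjusted p = 0.00875) and with edgeR's low-count filter (adjusted p = 0.0417).

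In the stormwater experiment no group of libraries was uniformly at 0. Of the stormwater libraries 5 were at 0 (3.6%, exact 95% interval 1.18 to 8.19%), and of 21 SCSU controls 1 was (4.76%, exact 95% interval 0.12 to 23.8%). All 6 libraries at 0 carried the spring label. The level spanned a wide range within nearly every group, as the values by sampling point show.

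At the 37ST filter in spring the outfall libraries held 5.52, 21.6, 39.3, 59.3 and 196.7 CPM and the inflow libraries 0, 0, 6.12, 120.03 and 157.3 CPM. In early summer the outfall held 8.12, 38.4, 101.8, 201.6 and 245.6 CPM and the inflow 68.7, 89.5, 106.8 and 410.2 CPM. In late summer the outfall held 7.67, 30.7, 33.1, 57.7 and 63.9 CPM and the inflow 3.96, 6.10, 19.6, 33.96 and 328.1 CPM. The spring inflow held 2 of the 5 stormwater libraries at 0, no outfall library of 15 was at 0, and the outfall and inflow ranges overlapped in all 3 seasons.

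At the TBNS1 filter in spring the outfall libraries held 0, 4.99, 28.04, 115.1 and 122.2 CPM and the inflow libraries 4.78, 4.96, 16.2, 76.9 and 226.3 CPM. In early summer the outfall held 49.5, 112.97, 150.6, 179.6 and 186.3 CPM and the inflow 133.3, 137.9, 153.5, 165.5 and 208.7 CPM. In late summer the outfall held 12.4, 16.1, 32.1, 76.1 and 98.5 CPM and the inflow 3.68, 10.9, 98.3, 136.8 and 241.4 CPM. The early summer inflow was uniformly high, with a mean of 159.8 ± 30.2 CPM (SD, n = 5), and 1 outfall library of 15 was at 0, in spring. The ranges of outfall and inflow overlapped in each season.

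At the TBNS2 filter in spring the outfall libraries held 54.3, 109.9, 155.7, 166.3 and 255.6 CPM and the inflow libraries 0.293, 2.19, 157.6, 185.2 and 253.99 CPM. In early summer the outfall held 38.9, 52.99, 55.6, 65.9 and 163.3 CPM and the inflow 4.90, 8.13, 31.6, 77.99 and 117.1 CPM. In late summer the outfall held 0.192, 2.54, 12.01, 83.8 and 207.3 CPM and the inflow 8.65, 8.74, 30.3, 54.1 and 62.4 CPM. No TBNS2 library was at 0, although 1 of each was at 3 counts or fewer, and the ranges again overlapped in every season.

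The Cedar Lake pipe libraries held 0, 5.31, 7.36, 103.4 and 277.2 CPM in spring, 13.4, 53.9, 66.2, 202.3 and 382.4 CPM in early summer and 2.84, 18.4, 54.4, 84.5 and 119.3 CPM in late summer. The Crystal Lake pipe libraries held 20.2, 79.1, 167.3, 205.2 and 217.97 CPM in spring, 2.40, 5.61, 44.3, 46.7 and 57.7 CPM in early summer and 2.54, 5.05, 45.9, 92.2 and 155.3 CPM in late summer. By their means these pipes ordered the seasons differently, Crystal Lake being highest in spring and lowest in early summer. The ranges of the seasons overlapped within each pipe, and the difference in order was not tested. The SAP pipe libraries held 0, 0.184, 13.6, 68.9 and 233.97 CPM in spring and 28.98, 104.1, 129.2, 129.97 and 195.7 CPM in early summer. The late summer SAP libraries carried the code letter I or K in their titles, whose meaning is not given in the sources used here. Those with I (set I) held 0.371, 5.79, 10.7, 121.7 and 161.1 CPM, and those with K (set K) held 5.29, 30.1, 31.7, 150.1 and 158.2 CPM. Of the pipe libraries 1 of 15 from Cedar Lake, 0 of 15 from Crystal Lake and 1 of 20 from SAP were at 0.

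The SCSU controls, neonates in laboratory water without pyriproxyfen, were as variable. They held 0, 0.707, 31.8, 48.2, 69.2 and 138.5 CPM in spring and 16.8, 36.4, 186.8, 220.04 and 249.98 CPM in early summer. In late summer the controls likewise had code letters, and set J held 0.613, 3.88, 57.8, 160.7 and 300.3 CPM and set L held 0.766, 2.40, 8.51, 162.3 and 225.003 CPM. The control libraries thus spread between 0 and 300.3 CPM, and 1 of 6 spring controls was at 0.

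**Figure D2:**
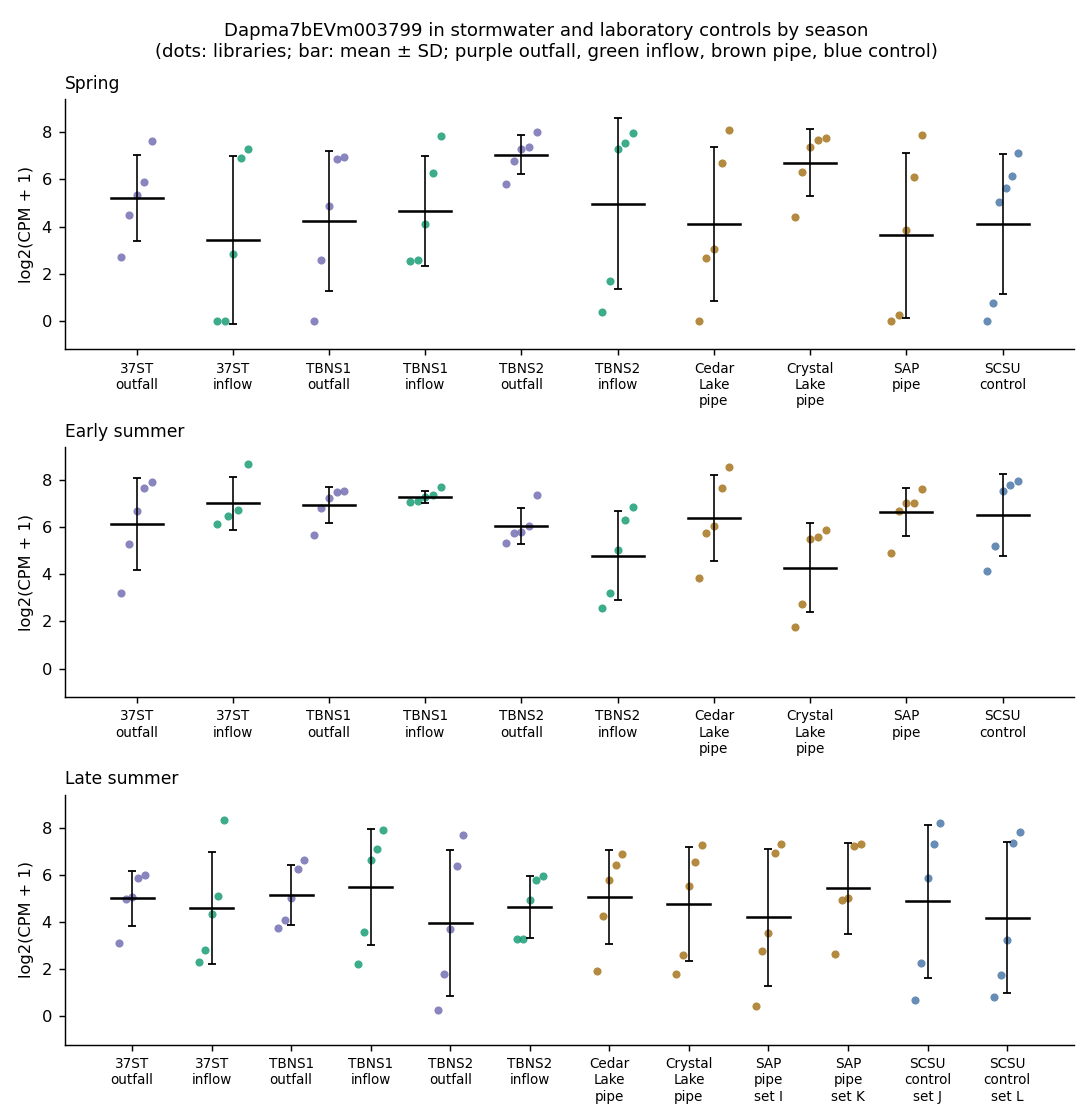
Level of Dapma7bEVm003799 in CPM on a log2(CPM + 1) axis in each library of the stormwater experiment, with points for libraries and bars for group means ± SD, by sampling point and season. The 6 libraries at 0 are all from spring, and most groups of 5 libraries span a wide range.

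By season the stormwater libraries had medians of 59.3 CPM in spring (0 to 277 CPM, n = 45), 95.7 CPM in early summer (2.40 to 410.2 CPM, n = 44) and 31.9 CPM in late summer (0.192 to 328 CPM, n = 50). The share of libraries at 0 was 11.1% in spring (exact 95% interval 3.71 to 24.1%), 0% in early summer (upper bound 8.04%) and 0% in late summer (upper bound 7.11%), and the difference between these shares was not tested. The transcript fell in late summer, against early summer, with a log2 fold change of -1.03 (SE 0.43) and an adjusted p of 0.0423 by edgeR's quasi-likelihood test. It was not a DEG at a fold change threshold of 2 on the log2 scale, which 1.07% of 26256 transcripts passed, and 42.5% of all transcripts had an adjusted p under 0.05 there. The adjusted p ranged between 0.00216 and 0.207 when replicate numbers were left out in turn, exceeding 0.05 without number 1, 2, 3 or 4. In late summer the library numbered 5 was the highest of its group in 8 of 12 groups, controls included, against 2 of the 9 early summer groups that had one. Without number 5 the log2 fold change was -1.68 (edgeR adjusted p = 0.00216). What the numbers share was not tested.

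The other seasonal comparisons of stormwater did not pass. The log2 fold change was 0.28 (SE 0.44) for early summer against spring (edgeR adjusted p = 0.664, with 1.96% of transcripts DEGs) and -0.75 (SE 0.42) for late summer against spring (edgeR adjusted p = 0.178, with 1.47% DEGs). Among the controls, which had no stormwater, the same seasonal labels gave 1.39 (SE 1.25) for early summer against spring, 0.98 (SE 1.10) for late summer against spring and -0.41 (SE 1.11) for late against early summer. None of these passed in edgeR's quasi-likelihood test (adjusted p of 0.617, 0.687 and 0.944 in that order), in comparisons where 0.667%, 1.05% and 0.758% of transcripts were DEGs.

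Stormwater and controls of the same season were not separated by this transcript. In spring stormwater averaged 87.7 ± 89.4 CPM (SD, n = 45) and controls 48.05 ± 51.8 CPM (SD, n = 6), which is 1.03 as a log2 fold change (SE 0.98). In early summer stormwater averaged 109.7 ± 91.1 CPM (SD, n = 44) and controls 142.02 ± 107.9 CPM (SD, n = 5), which is -0.08 as a log2 fold change (SE 0.97). In late summer stormwater averaged 60.7 ± 70.8 CPM (SD, n = 50) and controls 92.2 ± 111.2 CPM (SD, n = 10), which is -0.70 as a log2 fold change (SE 0.68). The controls fell inside the range of the stormwater libraries in every season, and the edgeR quasi-likelihood tests gave adjusted p-values of 0.782, 0.972 and 0.843 in order of season. The share of DEGs was 0.0267% in spring, 2.81% in early summer and 0.0267% in late summer.

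Passage through a sand filter did not separate the libraries either. The 45 outfall libraries averaged 82.7 ± 72.4 CPM and the 44 inflow libraries 90.3 ± 97.7 CPM (SD), with 1 and 2 libraries at 0. The log2 fold change was -0.13 (SE 0.44, edgeR adjusted p = 1). The comparison gave 0 DEGs of 26234 transcripts (0%) by edgeR's quasi-likelihood test and 9 by DESeq2. In edgeR 1366 transcripts had an unadjusted p under 0.05, which chance alone gives in about 5% of transcripts. In the 9 pairs of site and season the difference in mean log2(CPM + 1) lay between -0.86 and 2.08, and exact permutation tests gave p-values between 0.238 and 0.825, all 0.825 after adjustment over the 9. The 50 pipe libraries averaged 82.4 ± 86.7 CPM, with 2 at 0. Against the inflow libraries the log2 fold change was -0.10 (SE 0.43, edgeR adjusted p = 1), with 0.00762% of transcripts DEGs. Joint edgeR tests over the 9 points within a season gave adjusted p-values of 0.972 in spring, 0.925 in early summer and 1 in late summer, where 3.19%, 8.55% and 3.38% of transcripts passed.

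Ranked by mean, the 47 groups of both experiments ran upward from Lab Water-119 ng/L (0 CPM), unspiked Kerk (1.04 CPM), Lab Water-239 ng/L (7.99 CPM) and unspiked Breen (16.9 CPM). At the upper end stood the outfall of TBNS2 in spring (148.4 CPM), the inflow of TBNS1 in early summer (159.8 CPM) and the inflow of 37ST in early summer (168.8 CPM). No 2 neighbours in that order were separated by more than both of their SDs. In 18 groups the SD exceeded the mean, and 22 groups held libraries both under 10 CPM and over 100 CPM. Lab Water-119 ng/L was the only group with every library at 3 counts or fewer, and 12 groups held at least 1 such library.

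The spread between replicate pools was wide for this transcript compared with others. Within groups its SD of log2(CPM + 1) was 2.31 in the stormwater experiment and 1.96 in the wetland waters, where the median transcript had 0.45 and 0.39. In the stormwater experiment 97.4% of 16359 transcripts varied less within groups, and in the wetland waters 96.8% of 16526 did. Group means took up 21.8% of its variance in the stormwater experiment (median transcript 32.5%) and 50.8% in the wetland waters (median transcript 31.1%). These shares were not corrected for the number of groups (32 and 12). Part of each therefore arises from the spread within groups, even without a difference between groups.

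The transcripts most like Dapma7bEVm003799 were found by the mean of Spearman's rho over the 69 libraries of the wetland experiment and over the 160 of the stormwater experiment, among 15912 transcripts with a mean of at least 1 CPM in each. These coefficients are a description, since all transcripts share the same libraries and their depth, and the laboratory water libraries that chose the transcript are among them. The first was Dapma7bEVm002284, an uncharacterized protein (0.976), and the second was Dapma7bEVm028270 (0.972), the other transcript that the annotation names "Fibrinogen and fibronectin". Then followed Dapma7bEVm010337 (0.961), Dapma7bEVm027692 (0.958), Dapma7bEVm007584 (0.956) and Dapma7bEVm026278 (0.949), all uncharacterized, and Dapma7bEVm005002 (0.955) and Dapma7bEVm020161 (0.953), named only as conserved proteins. The remaining members of the first 10 were Dapma7bEVm011484, a Tudor and KH domain-containing protein (0.957), a kind of domain pair found in RNA-binding proteins, and Dapma7bEVm015132, a secreted protein (0.954). The median transcript had a mean rho of -0.06, and 1.85% exceeded 0.8.

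At the opposite end were Dapma7bEVm005134 (-0.80), for which the source gives no name, and Dapma7bEVm000240, a Bm8 interacting protein (-0.75). Dapma7bEVm001412, a chorion peroxidase precursor (-0.73), Dapma7bEVm001852, a conserved protein (-0.73), and Dapma7bEVm015121, an endocuticle structural glycoprotein (-0.71), completed the 5 lowest. Peroxidases of this family harden egg coverings in insects, and endocuticle glycoproteins are part of the inner cuticle. These 5 ran opposite to the transcript across libraries.

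**Figure D3:**
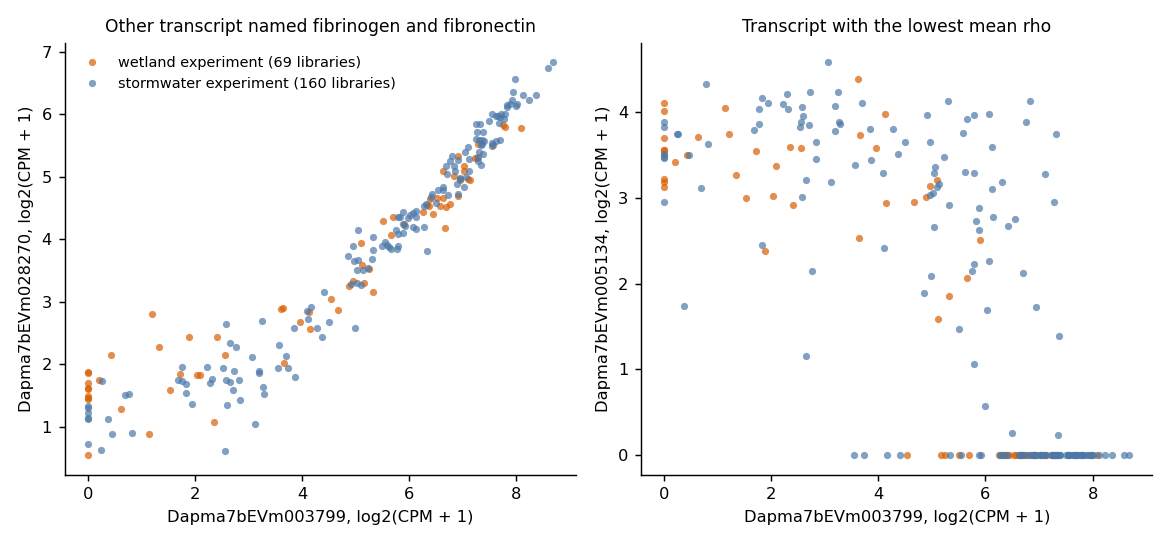
log2(CPM + 1) of Dapma7bEVm028270, the second most alike transcript, and of Dapma7bEVm005134, the transcript with the lowest mean rho, against log2(CPM + 1) of Dapma7bEVm003799, with a point for each library of the wetland (orange) and stormwater (blue) experiments. Dapma7bEVm028270 climbs with Dapma7bEVm003799 (rho 0.962 over the wetland and 0.981 over the stormwater libraries), and Dapma7bEVm005134 declines with it.

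Dapma7bEVm028270 had a lower group mean than Dapma7bEVm003799 in 45 of 47 groups and a higher one in Lab Water-119 ng/L and in unspiked Kerk water, the other 2. It held 3.07, 14.4, 24.3, 29.8 and 31.2 CPM in Lab Water-0 ng/L, 1.71, 1.80, 2.04, 2.07 and 2.67 CPM in Lab Water-119 ng/L, and 0.458, 2.60, 3.44, 4.42 and 8.47 CPM in Lab Water-239 ng/L. The libraries of the lower dose were again all below those without pyriproxyfen, though each held some of its RNA. Over the 210 libraries with more than 3 counts of Dapma7bEVm003799, the median ratio of Dapma7bEVm028270 to it, both in CPM, was 0.301. In the 19 libraries where Dapma7bEVm003799 was at 3 counts or fewer, Dapma7bEVm028270 exceeded 3 counts in all, with 33 at most. Both levels are per library and not per length of the transcript, so the ratio does not compare molecules. Kallisto divides reads between near-identical transcripts, and whether the pair share sequence was not examined.

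In Kerk water Dapma7bEVm028270 held 3.84, 20.2, 30.2 and 54.1 CPM when spiked and 0.85, 1.44, 2.25, 2.53 and 3.42 CPM when unspiked. Its spiked Kerk libraries all lay above the unspiked ones, and it rose by 3.84 on the log2 scale (SE 0.83, edgeR adjusted p = 0.00571). Pooled over the wetlands its log2 fold change was 1.02 (SE 0.36, edgeR adjusted p = 0.0481), so it rose in that test, where 15.4% of all transcripts tested passed, though below the fold threshold of a DEG. It fell in late summer stormwater, against early summer, by 1.03 on the log2 scale (SE 0.35, edgeR adjusted p = 0.0101), where 42.5% of all transcripts passed.

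The 10 most alike transcripts were chosen over the same libraries, so their fold changes are values side by side and add no support. In Kerk all 10 were DEGs with higher levels in spiked water, between 3.84 and 8.602 on the log2 scale, whereas the 5 lowest were all negative and 0 of them were DEGs. Over all transcripts tested there, 1.84% were DEGs with higher and 0.18% with lower levels. In Breen and in Kandiyohi all 10 were positive and 0 were DEGs, where 0.0994% and 0.0573% of all transcripts tested were. In laboratory water the fitted log2 fold changes of the 10 lay between -9.24 and -3.38 for the lower dose against none, and for the higher dose between -4.31 and -2.50. In stormwater all 10 had an adjusted p under 0.05 for late against early summer by edgeR's quasi-likelihood test, between -1.40 and -0.78, and 0 were DEGs. In that comparison 42.5% of all transcripts had an adjusted p under 0.05, and 1.07% were DEGs.

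**Figure D4:**
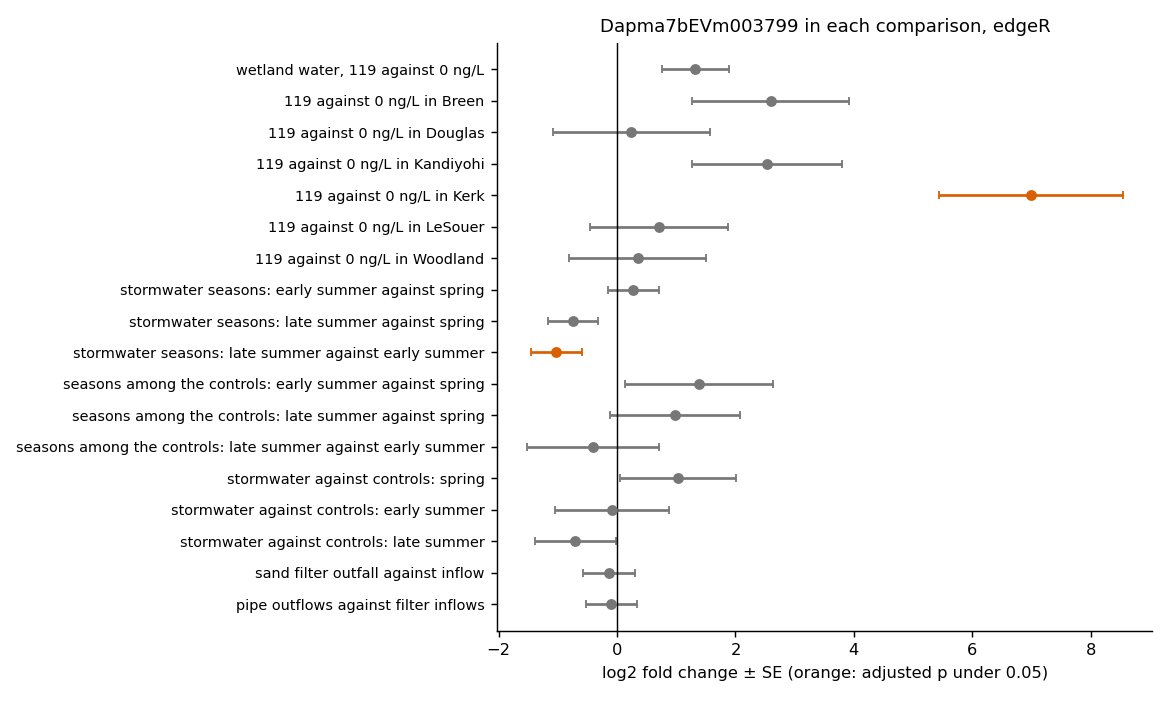
log2 fold change of Dapma7bEVm003799 on the x axis, as points with bars for the standard error from edgeR, with a line for each wetland and stormwater comparison and in orange those with an adjusted p under 0.05. Kerk has the highest value drawn (6.99), and late against early summer stormwater (-1.03) is the other comparison in orange.

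Groups of transcripts that the study names among its DEGs of the wetland experiment were counted in the same fits. They were picked there because they moved in these libraries, so their counts are not independent evidence of a direction. C-type lectins, which bind sugars and serve in recognition of microbes, resemble fibrinogen-like lectins in that role. In the pooled wetland comparison, where 0.554% of transcripts were DEGs with higher levels, 3 of 8 lectins rose and 0 fell, with a median log2 fold change of 1.20 against 0.02 over all transcripts. The largest rise was that of Dapma7bEVm015767, a mannose-binding C-type lectin (log2 fold change 3.53, SE 0.54, edgeR adjusted p = 5.9e-06). In Kerk, where 1.84% of transcripts were DEGs with higher levels, 3 of 8 lectins rose, with a median of 4.24 against 0.00 over all transcripts, and the largest was Dapma7bEVm018675, a galactose-binding C-type lectin (8.21, SE 1.64, edgeR adjusted p = 0.00467). Among the control libraries Dapma7bEVm006027, a protein with a C-type lectin domain, fell in late summer, against spring, by 4.40 (SE 1.36, edgeR adjusted p = 0.0373).

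Collagens and matrix proteins, which build the extracellular scaffold, gave 0 DEGs among 10 in the pooled wetland comparison (median log2 fold change 0.91) and 2 that rose in Kerk (median 2.12). The larger of these was Dapma7bEVm001502, a collagen alpha chain (5.24, SE 1.29, edgeR adjusted p = 0.0141). Clip-domain serine proteases, which relay immune and melanization signals in arthropod hemolymph, had different counts in the 2 comparisons. Of 27, 7 rose in Kerk and 0 fell, and 0 rose and 6 fell in the pooled comparison, of which Kerk is a part. Over all transcripts tested, 1.84% were DEGs with higher and 0.18% with lower levels in Kerk, and 0.554% and 0.558% in the pooled comparison. In Kerk 6 of 13 transcripts of chitin turnover, 4 of 14 peroxidases and 5 of 75 cuticle transcripts also rose and 0 fell, in a comparison where few transcripts of any kind were DEGs with lower levels. In late against early summer stormwater 0 of 8 lectins and 0 of 10 matrix transcripts were DEGs by edgeR, where 1.07% of all transcripts were.

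Across libraries the lists differed in how they ran with Dapma7bEVm003799. The lists were drawn from DEGs of the wetland experiment, whose libraries also enter rho, so the values are a description and add no support. The median rho was 0.34 over 7 lectins, 0.46 over 9 matrix transcripts, 0.51 over 26 clip-domain proteases, 0.49 over 10 transcripts of chitin turnover, 0.62 over 14 peroxidases and 0.02 over 72 cuticle transcripts, against -0.06 over all 15912. The lectins ranged from the galactose-binding Dapma7bEVm018675 (0.92) to the galactose-binding Dapma7bEVm010422 (-0.63). The matrix transcripts ranged from the collagen Dapma7bEVm001502 (0.95) to Dapma7bEVm004378, a protein with somatomedin-B and thrombospondin domains (-0.47). Of the cuticle transcripts 26 of 72 (36.1%) had a mean rho under -0.5, against 2.07% of all transcripts, and 2 exceeded 0.8.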

How the data were processed

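The authors made strand-specific messenger RNA libraries, checked the reads with FastQC, trimmed them with Trimmomatic and assigned them to reference transcripts with Kallisto (versions not given in the sources used here), and deposited 1 table of estimated counts that was not normalized between libraries. Reads of near-identical transcripts are divided by Kallisto, so such values are uncertain. Of the values, 31.4% were not whole, and all were rounded. Transcripts without variance in one or both experiments were removed as in the study's methods, which left 26256 of 29127. CPM were computed on the library total.

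Groups were compared with edgeR 4.0.16 in R 4.3.3 (quasi-likelihood test after TMM normalization, p-values adjusted over all transcripts tested by Benjamini-Hochberg), within each experiment. DEGs, as in the study, passed an adjusted p-value of 0.05 with a change of more than 2 on the log2 scale. Single groups were also compared with exact two-sided permutation tests of log2(CPM + 1) in scipy 1.17.1. Alternatives were DESeq2 1.42.0, median-ratio size factors, the filter filterByExpr, a replicate block, covariates, counts summed per water sample, a pseudocount of 0.1 CPM, and leaving out replicate numbers or wetlands. The fits were tested on simulated data.

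The transcript, the lists and the tests were chosen with earlier results of these data known. Named were this transcript, the other with its name, the lectin and matrix lists with the largest rise and fall among DEGs, the 10 transcripts most like it and the 5 least like it. The laboratory water contrast, which chose the transcript, was given no test, although its table of all transcripts supplied the share of DEGs. No promoter, transcript or protein sequence was used. Libraries were grouped by their labels. A library with conflicting season labels entered no comparison.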

Additional observations from a re-analysis of the deposited data

Results flagged for a closer look

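In unspiked Douglas water the lowest library held 11.4 CPM, whereas the others held 75.0 to 155.04 CPM, and in spiked Woodland water the lowest held 3.25 CPM, whereas the others held 91.1 to 129.7 CPM. The gap to the nearest library took up more of the group's range than Dixon's 95% critical value in both (ratios of 0.716 and 0.898 against 0.71). Without the replicate number of that library, the difference in mean log2(CPM + 1) between spiked and unspiked water was -0.43 in Douglas and 0.76 in Woodland, against 0.21 and -0.04 with all libraries. Of 44 groups with 4 to 10 libraries these 2 exceeded it, and chance alone exceeds it in about 5% of groups.

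Kandiyohi water and laboratory water differed in the direction of their change between groups with and without pyriproxyfen, at the same nominal dose. In laboratory water these groups also differed in the ethanol carrier, which the water without pyriproxyfen lacked. In Kandiyohi every spiked library lay above every unspiked one (difference in mean log2(CPM + 1) of 3.21), and in laboratory water every Lab Water-119 ng/L library lay below every Lab Water-0 ng/L library. The change in Kandiyohi did not pass in edgeR's quasi-likelihood test (adjusted p = 0.42) or in the exact permutation test (0.0952 adjusted over the 6 wetlands). The difference between the waters was not tested, and the laboratory contrast is the one by which the transcript was chosen.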

How the results depend on the processing

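Over the settings that kept all replicate numbers, 165 values held, 7 newly passed the threshold of their test and 3 changed sign. Test results held if they kept their side of the threshold and any direction they had. The 165 also include values that were not tested. These are the mean CPM of each of the 47 groups under TMM scaling, within the group's SD, and the number of libraries without a count. The pooled wetland difference passed with the wetland as a covariate (log2 fold change 1.96) and without Douglas (1.83). The comparison of the 6 dose effects passed by DESeq2 (adjusted p = 0.0424), and that of the unspiked wetlands by DESeq2 (adjusted p = 0.00875), with filterByExpr (0.0417) and with the replicate block (0.0487). Late summer against spring passed with counts summed per water sample (-0.77). The replicate block changed the sign for Douglas (-0.31), pipe against inflow (0.069) and early summer stormwater against controls (0.080). The cause of these shifts was not tested. The labels name nothing that a replicate number shares. Over all transcripts, the deviations of same-numbered libraries correlated over 0.1 in 8 of 24 pairs of wetland doses, 22 of 44 of outfall and inflow and 33.1% of those of seasons, and 2 of 24, 12 of 44 and 15.3% correlated best with their own number, so the pairs did not deviate together throughout. For Dapma7bEVm003799 number 5 was the highest in 15 of the 31 stormwater experiment groups that had one, a count made after seeing the data. With the block the Kerk log2 fold change was 6.73 and late against early summer -1.37.

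Leaving out each replicate number in turn gave log2 fold changes of -0.64 to 0.78 in Douglas, 6.68 to 7.46 in Kerk, -0.24 to 0.35 for pipe against inflow, -0.29 to 0.10 for outfall against inflow, -0.12 to 0.58 for early summer against spring and -1.68 to -0.74 for late against early summer. Among controls it gave -1.27 to 0.16 for late against early summer and -0.23 to 2.01 for late summer against spring, and for early summer stormwater against controls -0.45 to 0.24. The adjusted p over unspiked wetlands ran between 0.0311 and 0.397. Differences in mean log2(CPM + 1) under permutation ran between -0.47 and 1.26 in Douglas, -0.55 and 0.76 in Woodland, -0.27 and 1.84 at 37ST in late summer, -1.09 and 0.63 at TBNS1 in late summer, -1.21 and 1.05 at TBNS1 in spring, and -1.96 and 0.53 at TBNS2 in late summer. In laboratory water, an alternative chosen after seeing the data, the difference from Lab Water-0 ng/L ran between -6.42 and -5.55 at the lower dose and at the higher between -3.88 and -3.22.

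Counts of DEGs over all transcripts moved by over 1.5 times in several comparisons. The pooled wetland comparison gave 44.3% of its 291 DEGs with filterByExpr and 192 with summed counts. DESeq2 gave 167 in Breen, 83 in Kandiyohi, 498 in LeSouer and 21 in Woodland, against 26, 15, 223 and 5. It gave 964 for the 6 effects compared and 2547 for the unspiked wetlands, which is 747% and 366% of the main counts. It gave 43 for pipe against inflow, against 2, and for stormwater against controls 29 in spring and 19 in late summer, against 7 in each. Over sampling points it gave 5036 in early summer and 1551 in late summer, against 2242 and 886. With filterByExpr the counts were 44 in Breen, against 26, and 478 for early summer stormwater against controls, against 738. Among controls, a fit of the controls alone gave 7 for early summer against spring (4% of the main count), 67 for late against early summer and 52% of the 275 for late summer against spring. With filterByExpr the first pair gave 65.7% and 60.3%, and without sets K and L the last pair gave 91 and 59.3%. Late summer stormwater against controls gave 1 with filterByExpr and 4 without these sets, against 7. The replicate block gave 0 in spring, against 7, and 3 in Woodland, against 5. Pipe against inflow gave 4 without set K, against 2, and outfall against inflow 1 with site and season as covariates and 9 by DESeq2, against 0. Without rounding, 13 libraries were at 0, against 15 with it. In Lab Water-119 ng/L 4 were at 0 without rounding, against 5 with it. At these depths the 15 libraries at 0 allow up to 0.414 CPM each.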

Other observations

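1 library of inflow water from the 37ST filter carried conflicting season labels and entered no comparison. It held 34.9 CPM of Dapma7bEVm003799 (434 counts) and 11.4 CPM of Dapma7bEVm028270.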
